A study of Homo sapiens with 24 samples.

Results

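The genes of the unfolded protein response and of the linked amino acid stress response were read across 2 human B-lymphoblastoid cell lines given calcitriol, estrogen or both. The set holds 40 genes listed by symbol, each represented by the probe set with the highest mean over the 24 arrays. Of these, 39 were measured among the 21214 named probe sets that were tested. The remaining gene, the protein disulfide isomerase PDIA3, has no value here because its probe sets also name a pseudogene, PDIA3P1. By role the measured genes are 15 ER chaperones and folding enzymes, 7 genes of ER translocation and degradation, 4 sensors and transmembrane factors, and 13 genes of the ATF4 branch. The array annotation uses older symbols for ERO1LB, now ERO1B, and WARS, now WARS1.

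GM10855 and GM10861 are HapMap lines, B cells immortalised with Epstein-Barr virus and grown in culture. Untreated cells of each line were taken at 0 h. Treated cells were taken at 36 h and had received calcitriol (the active vitamin D hormone), estrogen, or the pair of them. This gave 8 groups of 3 arrays. Any comparison with untreated cells therefore mixes the agent with 36 h in culture. Those among calcitriol, estrogen and both agents were matched for time. Each line is a single cell line, so a difference between them describes these lines only. The sources used here give no dose, estrogen compound or vehicle. Whether the 3 replicates were grown as separate cultures is not stated in the labels, so p-values reflect array-to-array spread that may be technical only.

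The unfolded protein response is the programme by which cells match the folding capacity of the endoplasmic reticulum (ER) to the load of secreted and membrane proteins. Its sensors ERN1 (IRE1), EIF2AK3 (PERK) and ATF6 sit in the ER membrane. ERN1 splices the mRNA of XBP1, and spliced XBP1 and cleaved ATF6 switch on chaperones and degradation genes. EIF2AK3 phosphorylates the translation factor eIF2, which slows general translation while favouring that of ATF4, a factor that drives amino acid synthesis and transport genes as well as DDIT3 (CHOP) and TRIB3. Amino acid shortage reaches ATF4 through a different kinase, EIF2AK4 (GCN2). In the B lineage the response is best known from plasma cells, whose antibody secretion depends on XBP1.

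The log2 medians of the arrays ran from 5.38 to 5.50. Replicates correlated at 0.985 to 0.993, and 0 pairs were identical. For the listed genes the standard error of a change over both lines was typically 0.060 (median), which gives a 95% interval of 0.124 to each side, and none of the 39 genes had a mean below 5 (0 genes). Of 10 B cell markers 9 were measured, at a median signal percentile of 82.1 among probe sets, against 34.3 for T cell, 40.3 for monocyte, 45.5 for NK cell, 49.4 for fibroblast and 41.3 for erythroid markers. Plasma cell markers stood at 93.8. Among the listed genes NUPR1 (45.2), ATF3 (46.2) and VLDLR (48.9), all of the ATF4 branch, fell within the range of the medians from T cell to fibroblast markers. MS4A1 (CD20), CD79A and PAX5 were among the bright B cell markers, and BANK1 was dim, at percentile 12.02. The number of arrays limits the precision. Signals are log2 values made by RMA, which are compared below within a gene and never between genes.

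Elements known to carry this response were searched in the members' promoters, in RefSeq windows of 250 bases before to 50 bases after each annotated start (GRCh38.p14, both strands). The ER stress response element (ERSE), bound by ATF6 and XBP1 together with NF-Y, was taken as CCAAT and CCACG 9 bases apart, and its variant ERSE-II as ATTGG and CCACG 1 base apart. Windows were available for 37 of the 39 genes, NUPR1 and DERL1 being the exceptions. ERSE or ERSE-II stood in 10 of the 37 genes, 9 chaperones and HERPUD1, and in 44 of all 27305 genes (0.161%). ERSE itself was found in CALR, CANX, CRELD2, ERO1LB, HSP90B1, HSPA5 and PDIA6, against 0.0916% of all genes, and ERSE-II in HERPUD1, HYOU1 and SDF2L1, against 0.0696%. It was found in 0 of 12 ATF4 branch genes. Sites of the best-known targets are printed 5′ to 3′ on the strand of the gene, with the element in capitals, because these elements define the ATF6 and XBP1 arm in its known targets; 6 of the 15 chaperones held neither form. They are from HSPA5 at chr9:125241371-125241429 (minus strand), HSP90B1 at chr12:103930196-103930254 (plus), PDIA6 at chr2:10812833-10812891 (minus), HERPUD1 at chr16:56932005-56932055 (plus), SDF2L1 at chr22:21642094-21642144 (plus) and HYOU1 at chr11:119057254-119057304 (minus), and lie before the annotated starts.
HSPA5: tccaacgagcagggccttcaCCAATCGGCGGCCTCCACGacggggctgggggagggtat
HSP90B1: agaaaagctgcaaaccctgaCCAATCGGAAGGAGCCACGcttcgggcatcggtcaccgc
PDIA6: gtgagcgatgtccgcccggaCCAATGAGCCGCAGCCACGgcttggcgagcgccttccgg
HERPUD1: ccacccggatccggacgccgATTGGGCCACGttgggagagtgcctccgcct
SDF2L1: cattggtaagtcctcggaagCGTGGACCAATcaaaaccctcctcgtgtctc
HYOU1: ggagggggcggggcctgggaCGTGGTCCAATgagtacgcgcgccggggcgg

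The C/EBP-ATF composite element, through which ATF4 and C/EBP factors act on amino acid response genes, was taken as TGATGNAA. It stood in 5 of 12 ATF4 branch genes (ASNS, ATF3, CEBPG, CHAC1 and SLC3A2) and 7 of the 37 genes in all, the others being CREB3L2 and HERPUD1, which also holds an ERSE-II, and in 4.46% of all genes. The XBP1 and ATF6 site called the UPRE core, TGACGTGG, was found in HYOU1, where it overlaps an ERSE-II on the other strand, and in TXNDC11, and in 0.927% of all genes. The TXNDC11 match starts 5 bases after the annotated start. A match describes letters in the window and shows no binding. The sites below are those of ASNS at chr7:97872449-97872496 (minus strand), CHAC1 at chr15:40953242-40953289 (plus), where the element reads on the opposite strand, CEBPG at chr19:33374051-33374098 (plus) and TXNDC11 at chr16:11742834-11742863 (minus), the last shown because this gene gave the calls reported next.
ASNS: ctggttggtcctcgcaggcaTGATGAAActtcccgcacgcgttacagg
CHAC1: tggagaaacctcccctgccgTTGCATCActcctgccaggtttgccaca
CEBPG: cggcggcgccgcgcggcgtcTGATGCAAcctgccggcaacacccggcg
TXNDC11: ggcggcgcggcTGACGTGGagcgtccgggt

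Few of these genes passed the test in the agent comparisons. TXNDC11, a thioredoxin-domain protein of the ER membrane, was the only measured member that passed the test in any of the 6 agent comparisons averaged over both lines. It was higher with calcitriol than with estrogen and higher with both agents than with estrogen. HSPA5, HERPUD1, ATF4, DDIT3, TRIB3, ASNS and CHAC1 passed in none of these comparisons. Calls used limma with Benjamini-Hochberg adjustment over 21214 probe sets, at an adjusted p under 0.05. Against estrogen, calcitriol called 1 of 39 members (0.57% of all probe sets were called, 0.49% higher and 0.0801% lower) and both agents called 1 of 39 (0.754%). Calcitriol against untreated called 0 of 39 (0.679% of all probe sets, 0.618% higher and 0.0613% lower), with 5 members at an unadjusted p under 0.05. Both agents against untreated called 0 of 39 (1.15%, of which 0.995% higher and 0.151% lower), also with 5 unadjusted. Estrogen against untreated called 0 members and 0 probe sets (0%), with 0 members unadjusted. Both agents against calcitriol called 0 members and 0 probe sets (0%), with 2 members unadjusted. Of the 21214 probe sets, 1390, 2311 and 1097 had an unadjusted p under 0.05 for calcitriol, both agents and estrogen against untreated. For both agents against calcitriol 1772 did. The median change over the members was 0.041 for calcitriol, 0.00065 for estrogen and 0.025 for both agents against untreated, beside -0.0011, 0.011 and -0.0012 over all probe sets. These 3 comparisons share the untreated arrays.

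TXNDC11 was read in every array as follows. In GM10855 its log2 signal was 8.93, 8.88 and 8.88 untreated, 9.04, 9.03 and 9.10 with calcitriol, 8.78, 8.89 and 8.66 with estrogen and 9.06, 9.01 and 9.20 with both agents. In GM10861 it was 8.43, 8.25 and 8.27 untreated, 8.68, 8.69 and 8.48 with calcitriol, 8.31, 8.30 and 8.40 with estrogen and 8.47, 8.58 and 8.58 with both agents. In each line every array with calcitriol, alone or with estrogen, lay above every array without it: the 6 with calcitriol spanned 9.01 to 9.20 against 8.66 to 8.93 in GM10855, and 8.47 to 8.69 against 8.25 to 8.43 in GM10861. Over the 39 genes, all 3 arrays of the first group stood above all 3 of the second in both lines for 1 gene with calcitriol against untreated (0.886% of all probe sets) and for 1 with both agents against untreated (1.23%), in each case TXNDC11. Against estrogen this held for 2 genes with calcitriol (0.811%), TXNDC11 and the co-chaperone DNAJB11, and for 2 with both agents (0.83%), TXNDC11 and HSP90B1. It held for 0 genes with both agents against calcitriol (0.523%) and with estrogen against untreated (0.278%). The reverse, below in both lines, held for 0 genes with calcitriol against untreated (0.415%). DNAJB11 and HSP90B1 are named here after their values were seen.

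Calcitriol against estrogen gave a log2 change of 0.28 ± 0.056 (adjusted p = 0.0121), a 1.22-fold difference. For both agents against estrogen the change was 0.26 ± 0.056 (adjusted p = 0.0252), or 1.197-fold. These comparisons share the estrogen arrays. Against untreated cells the changes were of similar size but missed the threshold, at 0.23 ± 0.056 (adjusted p = 0.0605) for calcitriol and 0.21 ± 0.056 (adjusted p = 0.0754) for both agents, while estrogen gave -0.05 ± 0.056 (adjusted p = 0.983). Adding estrogen to calcitriol gave -0.02 ± 0.056 (adjusted p = 0.946), with a 95% interval from -0.14 to 0.09. Within a line, calcitriol against untreated gave 0.16 ± 0.08 (adjusted p = 0.637) in GM10855 and 0.30 ± 0.08 (adjusted p = 0.308) in GM10861, and the difference in response between the lines was 0.13 ± 0.11 (adjusted p = 0.845). The calcitriol against estrogen call was lost without GM10861 calcitriol array 1 (adjusted p = 0.0535) or 2 (adjusted p = 0.0538) and when the compared arrays alone were fitted (adjusted p = 0.0606). The call for both agents against estrogen was lost on leaving out any of 7 arrays, GM10855 estrogen 1 and 3, GM10855 both 3, GM10861 estrogen 1 and 2 and GM10861 both 2 and 3 (adjusted p of 0.0541 to 0.0878), and when the compared arrays alone were fitted (adjusted p = 0.110).

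**Figure D1:**
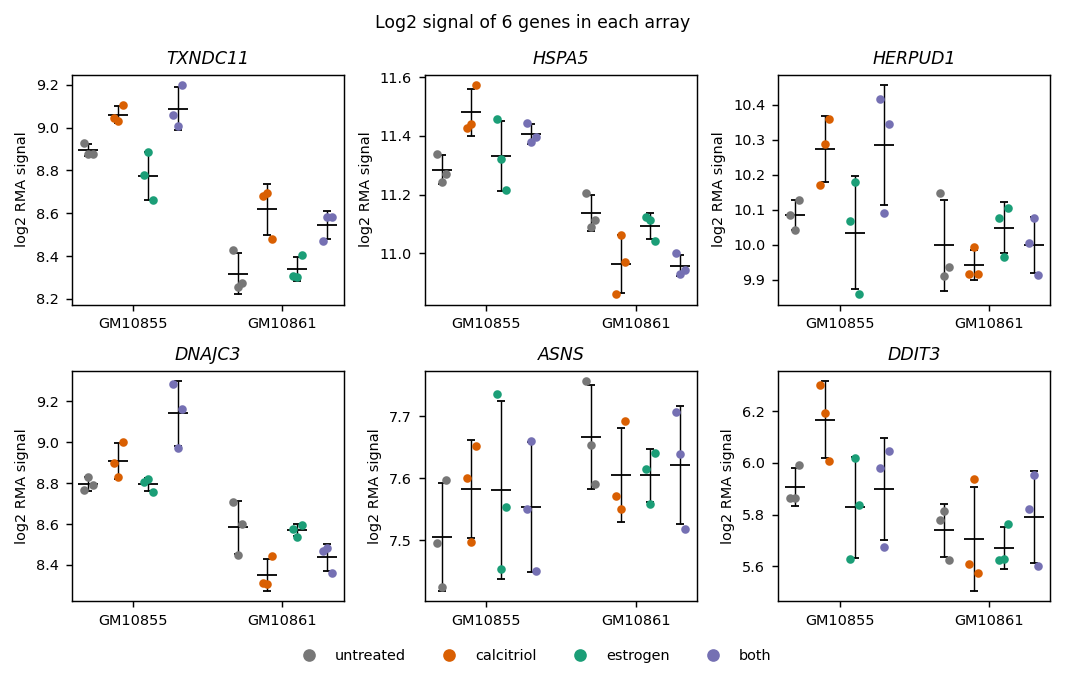
Log2 RMA signal (vertical axes) of 6 genes in each of the 24 arrays, by line and agent; points are arrays, the horizontal bar is the mean of 3 arrays and the whiskers are 1 SD. TXNDC11 arrays with calcitriol lie above those without it in both lines, HSPA5 arrays with calcitriol lie above untreated ones in GM10855 and below them in GM10861, and ASNS arrays overlap in all groups of a line.

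The other chaperones and folding enzymes did not pass in any of the 6 comparisons. HSPA5 (BiP), the abundant ER Hsp70 that also holds the sensors inactive, had log2 signals in GM10855 of 11.34, 11.24 and 11.27 untreated, 11.43, 11.44 and 11.57 with calcitriol, 11.46, 11.32 and 11.22 with estrogen and 11.44, 11.38 and 11.40 with both agents. In GM10861 they were 11.20, 11.09 and 11.11 untreated, 10.86, 11.06 and 10.97 with calcitriol, 11.12, 11.11 and 11.04 with estrogen and 10.999, 10.93 and 10.94 with both agents. All 3 calcitriol arrays lay above all untreated arrays in GM10855 and below them in GM10861, so the mean over both lines was 0.01 ± 0.052 (adjusted p = 0.997). By line the change was 0.20 ± 0.074 (adjusted p = 0.468) in GM10855 and -0.17 ± 0.074 (adjusted p = 0.784) in GM10861. The difference between these responses was -0.37 ± 0.10 (adjusted p = 0.479) and did not pass the test.

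SDF2L1, an ER cofactor of HSPA5, had the second largest mean change with calcitriol among the chaperones, at 0.15 ± 0.062 (adjusted p = 0.643). Its signals in GM10855 were 7.60, 7.19 and 7.39 untreated, 7.61, 7.58 and 7.69 with calcitriol, 7.32, 7.32 and 7.23 with estrogen and 7.33, 7.57 and 7.30 with both agents. GM10861 gave 7.29, 7.28 and 7.25 untreated, 7.23, 7.41 and 7.38 with calcitriol, 7.43, 7.39 and 7.37 with estrogen and 7.31, 7.35 and 7.29 with both agents. Untreated array 1 of GM10855 overlapped the calcitriol arrays of that line, and the groups overlapped in GM10861. With both agents the change was 0.02 ± 0.062 (adjusted p = 0.941). For both agents against untreated, HSP90B1 (GRP94) had 0.15 ± 0.051 (adjusted p = 0.196) and PDIA6, a disulfide isomerase, 0.12 ± 0.051 (adjusted p = 0.344), neither past the threshold.

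HERPUD1, a membrane component of ER-associated degradation and a direct ATF6 and XBP1 target, had signals in GM10855 of 10.09, 10.04 and 10.13 untreated, 10.17, 10.29 and 10.36 with calcitriol, 10.07, 10.18 and 9.86 with estrogen and 10.42, 10.09 and 10.35 with both agents. The GM10861 arrays read 10.15, 9.91 and 9.94 untreated, 9.92, 9.99 and 9.92 with calcitriol, 10.08, 9.97 and 10.10 with estrogen and 10.01, 10.08 and 9.91 with both agents. The calcitriol arrays lay above the untreated ones in GM10855 and overlapped them in GM10861. The mean changes were 0.07 ± 0.066 (adjusted p = 0.964) with calcitriol, -3.6e-05 ± 0.066 (adjusted p = 0.9998) with estrogen and 0.10 ± 0.066 (adjusted p = 0.636) with both. Of the 7 translocation and degradation genes none passed in any comparison with untreated cells (0 called, 0 at an unadjusted p under 0.05), their medians being 0.066, 0.0078 and 0.071 for calcitriol, estrogen and both agents.

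Within GM10855 the chaperones leaned one way with calcitriol. All 15 had a change above 0 against untreated cells, with a median of 0.175 (range 0.044 to 0.244), and all 7 translocation and degradation genes did too, with a median of 0.159. The ATF4 branch had 9 of 13 above 0 and a median of 0.075, the sensors 1 of 4 and a median of -0.055, and all probe sets 54.8% above 0 and a median of 0.013. Among probe sets with a mean of at least 5, as all 39 genes have, 59.6% were above 0 with a median of 0.026, and of the other genes of the pathway 49 of 59 were, with a median of 0.090. Against estrogen, matched for time, calcitriol had 14 of 15 chaperones above 0, with a median of 0.149. The ATF4 branch then had 11 of 13, with a median of 0.060, and all probe sets 51%, with 0.003. All genes were read from the same arrays, so their signs are not independent observations. The mean log2 signal over the 15 chaperones was 9.18 ± 0.059 untreated, 9.34 ± 0.055 with calcitriol, 9.19 ± 0.044 with estrogen and 9.33 ± 0.019 with both (SD, n = 3), and all 3 calcitriol arrays lay above all untreated and all estrogen arrays. None of the 39 genes passed the test in this line with calcitriol against untreated (0 called against 0.509% of all probe sets). An unadjusted p under 0.05 was reached by 13 of them and by 1666 of the 21214 probe sets. The smallest adjusted p was that of HYOU1, an ER chaperone of the Hsp110 family, at 0.24 ± 0.072 (adjusted p = 0.206). SEL1L, the adaptor of the HRD1 ubiquitin ligase, had 0.30 ± 0.10 (adjusted p = 0.355).

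By array, 12 of the 39 genes had all 3 calcitriol arrays above all 3 untreated arrays in GM10855, against 7.03% of all probe sets, and 0 had them below, against 3.97%. Among the chaperones these were HSPA5, HSP90B1, CALR, PDIA6, HYOU1 and TXNDC11 (6 of 15). In GM10861 the corresponding counts were 3 above, against 5.16%, and 8 below, against 8.88%. HSPA5, CANX, DNAJC3 and ERO1LB were the 4 chaperones below. The chaperone median in GM10861 was -0.025, with 5 of 15 above 0, and the chaperone means of its calcitriol and untreated arrays overlapped. None of the 39 genes was called there (0 called against 0.104%, 6 unadjusted).

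**Figure D2:**
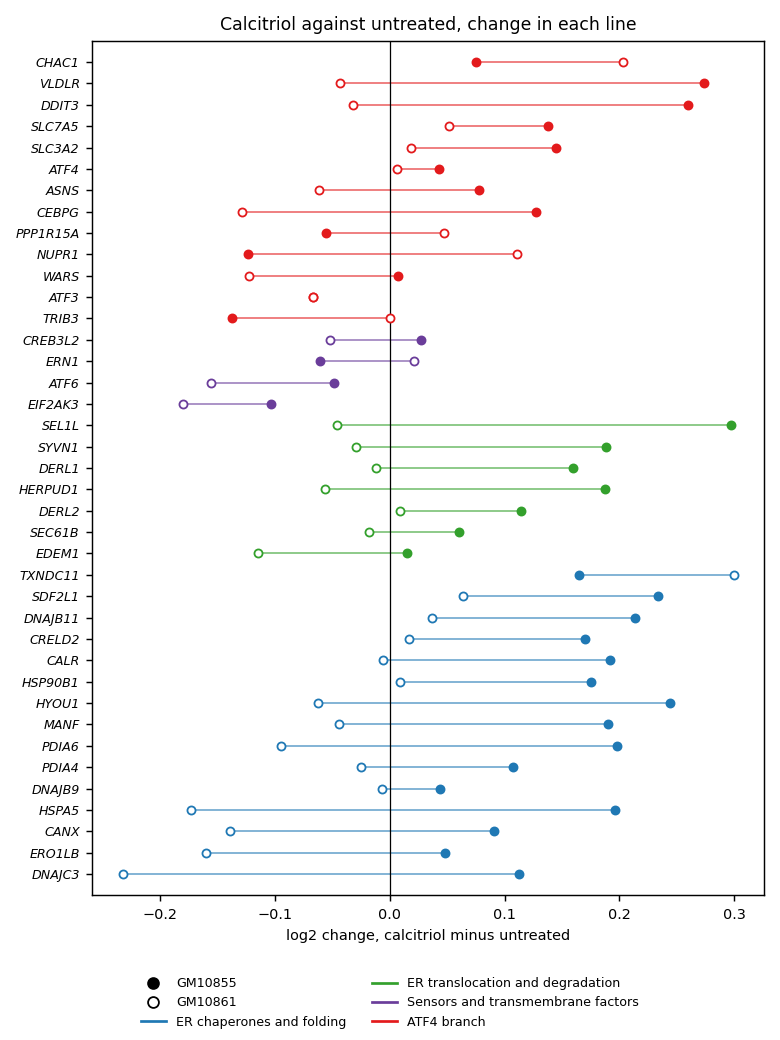
Log2 change of each of the 39 measured genes with calcitriol against untreated cells (horizontal axis), in GM10855 (filled) and GM10861 (open), coloured by role; each point is a difference of means of 3 arrays. All 15 chaperones lie right of 0 in GM10855, whereas 5 do in GM10861, and TXNDC11 is the chaperone with the largest value in GM10861.

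The difference in response between the lines passed for none of the 39 genes with calcitriol (0 called, against 0.00943% of all probe sets), estrogen (0, against 0%) or both agents (0, against 0.0141%). Unadjusted p was under 0.05 for 7, 1 and 8 of the 39 genes, and for 1407, 1257 and 2306 of the 21214 probe sets. With calcitriol the genes lowest in GM10861 relative to GM10855 by p were HSPA5, HYOU1 with -0.31 ± 0.10 (adjusted p = 0.581) and DNAJC3, an ER co-chaperone also known as p58IPK, with -0.35 ± 0.12 (adjusted p = 0.598). Those in the other direction were NUPR1, a small stress-induced chromatin protein, with 0.23 ± 0.14 (adjusted p = 0.794), TXNDC11, and CHAC1 with 0.13 ± 0.13 (adjusted p = 0.875). With both agents the smallest p values belonged to DNAJC3, with -0.49 ± 0.12 (adjusted p = 0.129), ERO1LB, an ER thiol oxidase, with -0.53 ± 0.13 (adjusted p = 0.140), and HSPA5, with -0.30 ± 0.10 (adjusted p = 0.285). In the other direction these were SEC61B, a translocon subunit, with 0.33 ± 0.16 (adjusted p = 0.468), DNAJB9, an ER co-chaperone, with 0.26 ± 0.17 (adjusted p = 0.607), and PPP1R15A (GADD34), an eIF2 phosphatase subunit, with 0.19 ± 0.14 (adjusted p = 0.669). For estrogen they were ERO1LB at -0.26 ± 0.13 (adjusted p = 0.799), EDEM1 at -0.17 ± 0.098 (adjusted p = 0.799) and SEL1L at -0.21 ± 0.14 (adjusted p = 0.821) on the lower side, and NUPR1 at 0.36 ± 0.14 (adjusted p = 0.799), SDF2L1 at 0.22 ± 0.12 (adjusted p = 0.799) and ATF4 at 0.14 ± 0.092 (adjusted p = 0.816) on the higher side. A second, dimmer ATF4 probe set gave -0.22 for this difference, and the mean of both probe sets gave -0.04, so its sign depended on the probe set.

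DNAJC3 was the member called within a single line, and it was picked out after its values were seen. In GM10855 its signals were 8.77, 8.83 and 8.79 untreated, 8.90, 8.83 and 9.001 with calcitriol, 8.80, 8.82 and 8.76 with estrogen and 9.29, 8.97 and 9.16 with both agents. GM10861 gave 8.71, 8.45 and 8.60 untreated, 8.31, 8.30 and 8.44 with calcitriol, 8.57, 8.54 and 8.59 with estrogen and 8.47, 8.48 and 8.36 with both agents. All 3 arrays with both agents lay above all untreated and all estrogen arrays in GM10855, and the calcitriol arrays of GM10861 lay below its untreated ones. With both agents in GM10855, 9 of 39 genes lay above untreated (9.29% of all probe sets) and 5 above estrogen (5.9%). For DNAJC3, both agents against untreated in GM10855 gave 0.35 ± 0.082 (adjusted p = 0.0276), where 1 of 39 members and 2.33% of all probe sets were called. That call was lost without untreated array 1, 2 or 3 or both array 1 or 3 of GM10855 (adjusted p of 0.0537 to 0.195) and when the compared arrays alone were fitted (adjusted p = 0.315). In GM10861 the same comparison gave -0.15 ± 0.082 (adjusted p = 0.794). Its line difference with both agents passed with trend and robust estimation (adjusted p = 0.0471) and without GM10855 both array 2 (adjusted p = 0.0491).

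**Figure D3:**
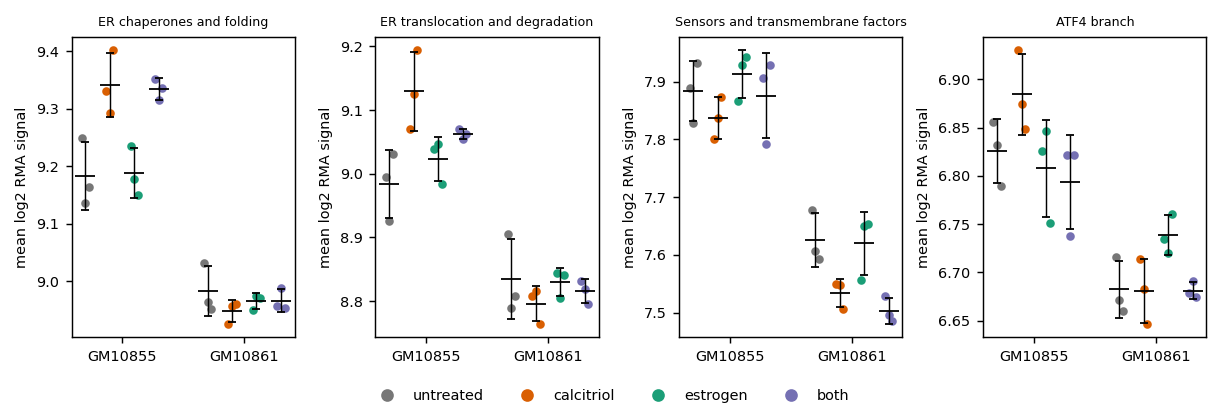
Mean log2 RMA signal over the genes of each role (vertical axes; 15, 7, 4 and 13 genes) in each array, by line and agent; points are arrays, the horizontal bar is the mean of 3 arrays and whiskers are 1 SD. Chaperone means with calcitriol, alone or with estrogen, lie above those without it in GM10855 and overlap in GM10861, and sensor means with calcitriol lie below the untreated ones in GM10861.

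The sensors had values on the lower side with calcitriol. Averaged over both lines, all 4 genes had a change below 0 with calcitriol, with a median of -0.061, and with both agents, with a median of -0.066, and none passed (0 called, with 2 and 0 unadjusted). EIF2AK3 (PERK) had -0.14 ± 0.054 (adjusted p = 0.538) with calcitriol and ATF6 had -0.10 ± 0.046 (adjusted p = 0.710). With both agents EIF2AK3 had -0.10 ± 0.054 (adjusted p = 0.520) and ERN1 (IRE1) -0.12 ± 0.06 (adjusted p = 0.512). In GM10861 the mean signal over the sensors was 7.63 ± 0.046 untreated, 7.53 ± 0.024 with calcitriol, 7.62 ± 0.055 with estrogen and 7.50 ± 0.022 with both agents (SD, n = 3), with every calcitriol-containing array below every array without it. In GM10855 the groups overlapped. XBP1, the factor activated by ERN1, had 0.02 with calcitriol, -0.02 with estrogen and -0.04 with both agents, none past the threshold. The arrays read gene signal and do not separate spliced from unspliced XBP1 mRNA.

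In the ATF4 branch 0 of 13 genes passed in any of the 6 comparisons, and at most 1 had an unadjusted p under 0.05 in any of them. ATF4, the transcription factor at its head, had signals in GM10855 of 8.95, 8.91 and 8.996 untreated, 9.002, 8.95 and 9.03 with calcitriol, 8.86, 8.89 and 8.80 with estrogen and 8.94, 8.92 and 8.85 with both agents. In GM10861 they were 9.07, 8.999 and 9.08 untreated, 9.04, 9.10 and 9.03 with calcitriol, 9.10, 9.02 and 9.17 with estrogen and 9.01, 9.05 and 8.96 with both agents. Its estrogen arrays lay below the untreated ones in GM10855, which held for 2 of 39 genes and 3.57% of all probe sets. The ATF4 arrays with calcitriol overlapped the untreated ones in both lines, and the change with calcitriol was 0.02 ± 0.046 (adjusted p = 0.989). The second, dimmer ATF4 probe set gave 0.03 with calcitriol (adjusted p = 0.994). For estrogen against untreated the ATF4 probe sets differed in sign, at -0.03 for the brighter and 0.06 for the dimmer, neither past the threshold. The array values above are those of the brighter one. ATF4 is regulated largely through translation, which mRNA levels do not show.

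DDIT3 (CHOP), the factor tied to cell death under prolonged ER stress, had signals in GM10855 of 5.86, 5.87 and 5.99 untreated, 6.30, 6.19 and 6.01 with calcitriol, 5.63, 6.02 and 5.84 with estrogen and 5.98, 5.68 and 6.05 with both agents. The GM10861 arrays read 5.78, 5.81 and 5.62 untreated, 5.61, 5.94 and 5.57 with calcitriol, 5.62, 5.63 and 5.76 with estrogen and 5.82, 5.95 and 5.60 with both agents. Calcitriol arrays lay above untreated ones in GM10855 and overlapped them in GM10861. The mean change was 0.11 ± 0.085 (adjusted p = 0.929), and calcitriol against estrogen gave 0.19 ± 0.085 (adjusted p = 0.627).

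TRIB3, a pseudokinase induced by ATF4 and DDIT3, had signals in GM10855 of 6.13, 6.13 and 5.99 untreated, 5.86, 5.998 and 5.99 with calcitriol, 5.95, 5.99 and 5.67 with estrogen and 5.998, 5.73 and 5.99 with both agents. In GM10861 they were 6.14, 6.22 and 6.18 untreated, 6.30, 6.19 and 6.05 with calcitriol, 6.34, 6.06 and 6.03 with estrogen and 5.87, 6.12 and 6.03 with both agents. Both agents against untreated gave -0.17 ± 0.073 (adjusted p = 0.352), the smallest p on the lower side of that comparison, and its 3 arrays lay below the untreated ones in GM10861 and overlapped them in GM10855. With both agents 7 of 39 genes lay below untreated in GM10861, against 7.98% of all probe sets. Estrogen, whose arrays lay below the untreated ones in GM10855 and overlapped them in GM10861, gave -0.12 ± 0.073 (adjusted p = 0.962). In GM10855 the highest estrogen array, at 5.9941, was barely below the lowest untreated one, at 5.9943. With estrogen 2 of 39 genes, TRIB3 and ATF4, lay below in that line, against 3.57% of all probe sets.

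CHAC1, an enzyme that degrades glutathione and a target of ATF4, had signals in GM10855 of 6.24, 6.28 and 6.09 untreated, 6.28, 6.31 and 6.25 with calcitriol, 6.32, 6.30 and 6.09 with estrogen and 6.06, 6.12 and 6.42 with both agents. For GM10861 the arrays gave 5.58, 5.57 and 5.67 untreated, 5.78, 5.83 and 5.81 with calcitriol, 5.84, 5.77 and 5.80 with estrogen and 5.69, 5.57 and 5.78 with both agents. In GM10861 every calcitriol and every estrogen array lay above the untreated ones, while in GM10855 the groups overlapped. With estrogen 4 of 39 genes lay above in GM10861, against 6.67% of all probe sets. The mean change was 0.14 ± 0.063 (adjusted p = 0.705) with calcitriol and 0.12 ± 0.063 (adjusted p = 0.954) with estrogen.

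ASNS, asparagine synthetase and the standard readout of amino acid shortage, had signals in GM10855 of 7.50, 7.42 and 7.60 untreated, 7.60, 7.50 and 7.65 with calcitriol, 7.74, 7.45 and 7.55 with estrogen and 7.55, 7.66 and 7.45 with both agents. In GM10861 they were 7.76, 7.65 and 7.59 untreated, 7.57, 7.55 and 7.69 with calcitriol, 7.62, 7.56 and 7.64 with estrogen and 7.71, 7.64 and 7.52 with both agents. All groups of a line overlapped. The change was 0.01 ± 0.06 (adjusted p = 0.999) with calcitriol, 0.01 ± 0.06 (adjusted p = 0.999) with estrogen and 0.0011 ± 0.06 (adjusted p = 0.997) with both, and the standard error sets a 95% interval of about 0.12 on either side.

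Estrogen left no call in the set. The members with the smallest p against untreated cells were SLC3A2, the heavy chain of the amino acid transporter SLC7A5, with 0.09 ± 0.047 (adjusted p = 0.953), CHAC1, and VLDLR, a lipoprotein receptor, with 0.13 ± 0.084 (adjusted p = 0.962) on the higher side. On the lower side they were TRIB3, TXNDC11 and DDIT3, with -0.07 ± 0.085 (adjusted p = 0.983). For estrogen added to calcitriol the higher side held DNAJC3 with 0.16 ± 0.058 (adjusted p = 0.512), CANX, a lectin chaperone, with 0.09 ± 0.053 (adjusted p = 0.679), and ATF6 with 0.07 ± 0.046 (adjusted p = 0.709). The lower side held CRELD2, an ER disulfide isomerase, with -0.19 ± 0.069 (adjusted p = 0.519), SDF2L1 with -0.13 ± 0.062 (adjusted p = 0.601) and SEC61B with -0.14 ± 0.082 (adjusted p = 0.674). For calcitriol against untreated the lower side held EIF2AK3, ATF6 and WARS, tryptophanyl-tRNA synthetase, with -0.06 ± 0.052 (adjusted p = 0.962).

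The chaperones were then set against the ATF4 branch as the difference of their mean log2 signals in each array, read only for how it moved between groups. In GM10855 this difference was 2.36 ± 0.047 untreated, 2.46 ± 0.083 with calcitriol, 2.38 ± 0.042 with estrogen and 2.54 ± 0.033 with both agents (SD, n = 3). Arrays with both agents lay above all untreated arrays and above all estrogen arrays, the latter by 0.161 in the means. Arrays with calcitriol lay narrowly above the untreated ones, the lowest at 2.401 against a highest of 2.394, and overlapped the estrogen arrays. In GM10861 it was 2.30 ± 0.014, 2.27 ± 0.051, 2.23 ± 0.024 and 2.29 ± 0.011 in the same order. Estrogen arrays lay below the untreated ones, and arrays with both agents lay above the estrogen arrays by 0.058 while overlapping the untreated ones. Among the 21 chaperone and degradation genes with a promoter window, the 10 holding ERSE or ERSE-II had a median calcitriol change of 0.190 in GM10855 and -0.060 in GM10861, and the 11 holding neither had 0.115 and -0.025. With both agents in GM10855 the medians were 0.183 and 0.170 against untreated and 0.122 and 0.149 against estrogen, so the order of these groups was not the same in each comparison.

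The larger contrast lay between the lines themselves. Of the 39 genes, 31 differed between GM10861 and GM10855 over all conditions (41.8% of all probe sets did, and 52.1% of those with a mean of at least 5), with 26 lower and 5 higher in GM10861 and a median of -0.24. Over all probe sets the calls leaned the other way, with 3895 lower (18.4%) and 4970 higher (23.4%), and the median was -0.018. By role, 12 of 15 chaperones were lower and 1, PDIA6, was higher, with a median of -0.31. Of the translocation and degradation genes 5 of 7 were lower, with a median of -0.17, and all 4 sensors were lower, with a median of -0.27. The ATF4 branch was mixed, with 5 lower, 4 higher and 4 not called and a median of -0.082. Since these are bulk samples, fewer cells of a type and less RNA per cell cannot be told apart.

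The 10 members with the smallest p were all lower in GM10861. WARS had its lowest, median and highest log2 signals at 9.56, 9.68 and 9.86 in GM10855 and 8.73, 8.85 and 8.94 in GM10861, a difference of -0.86 ± 0.037 (adjusted p = 2.17e-15). The lines did not overlap, and GM10861 stood at 0.55-fold of GM10855. The co-chaperone DNAJB9 (ERdj4) spanned 6.59, 6.81 and 7.01 in GM10855 and 5.75, 6.09 and 6.37 in GM10861, a difference of -0.70 ± 0.059 (adjusted p = 7.53e-10), again without overlap. ERO1LB followed with 6.72, 6.83 and 7.28 in GM10855 and 6.17, 6.31 and 6.60 in GM10861 and a difference of -0.57 ± 0.046 (adjusted p = 2.55e-10). All 12 GM10855 arrays were above all 12 GM10861 arrays for each of these genes.

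CREB3L2, a membrane-bound transcription factor that widens the secretory pathway, differed by -0.55 ± 0.046 (adjusted p = 5.68e-10). SEL1L differed by -0.55 ± 0.051 (adjusted p = 2.8e-09) and CHAC1 by -0.51 ± 0.044 (adjusted p = 1.13e-09). TXNDC11 differed by -0.50 ± 0.04 (adjusted p = 2.33e-10). The lines overlapped for TXNDC11, whose calcitriol arrays in GM10861 reached 8.69 against a lowest GM10855 value of 8.66, and were apart for the other genes named in this paragraph. PDIA4, a disulfide isomerase, differed by -0.48 ± 0.033 (adjusted p = 1.47e-11), DNAJC3 by -0.42 ± 0.041 (adjusted p = 6.77e-09) and EIF2AK3 by -0.39 ± 0.038 (adjusted p = 7.72e-09). HSPA5 differed by -0.34 ± 0.037 (adjusted p = 5.55e-08), with signals of 11.22, 11.39 and 11.57 in GM10855 and 10.86, 11.05 and 11.20 in GM10861.

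Across the set, 12 of 39 genes had all GM10855 arrays above all GM10861 arrays, against 3.25% of all probe sets, and 0 had the reverse, against 7.19%. The 12 were HSPA5, PDIA4, DNAJB9, DNAJC3, ERO1LB, SEL1L, SYVN1, EIF2AK3, CREB3L2, ATF3, CHAC1 and WARS. ATF3 was dim, with a mean log2 signal of 5.25. The genes higher in GM10861 were PDIA6 with 0.14 ± 0.036 (adjusted p = 0.00242), VLDLR with 0.27 ± 0.059 (adjusted p = 0.000614), TRIB3 with 0.18 ± 0.052 (adjusted p = 0.00854), CEBPG, a partner of ATF4, with 0.15 ± 0.044 (adjusted p = 0.00883) and ATF4 with 0.13 ± 0.032 (adjusted p = 0.00281). VLDLR was also dim, at a mean of 5.38. The ATF4 call was lost when both of its probe sets were averaged (0.07, adjusted p = 0.168). ASNS, SLC7A5, SLC3A2, NUPR1, CANX, SDF2L1, EDEM1 and DERL1 did not pass.

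In untreated cells alone 17 of 39 genes differed (24.3% of all probe sets did, and 31% of those with a mean of at least 5). Of these genes 14 were lower (8.15% of all probe sets) and 3 higher (16.2%) in GM10861, and the median over the 39 was -0.15. With 3 arrays per line, standard errors were larger than over all conditions (TXNDC11 0.08 against 0.04), so the 2 counts of calls cannot be compared directly. Given as GM10861 minus GM10855, WARS differed in untreated cells by -0.83 ± 0.074 (adjusted p = 7.27e-09), DNAJB9 by -0.75 ± 0.12 (adjusted p = 3.47e-05), CHAC1 by -0.60 ± 0.089 (adjusted p = 1.44e-05) and TXNDC11 by -0.58 ± 0.08 (adjusted p = 6.09e-06). PDIA6 had 0.32 ± 0.072 (adjusted p = 0.00201), which missed the threshold after cyclic loess (0.17, adjusted p = 0.0932). HSPA5, with -0.15 ± 0.074 (adjusted p = 0.160), did not pass in untreated cells.

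**Figure D4:**
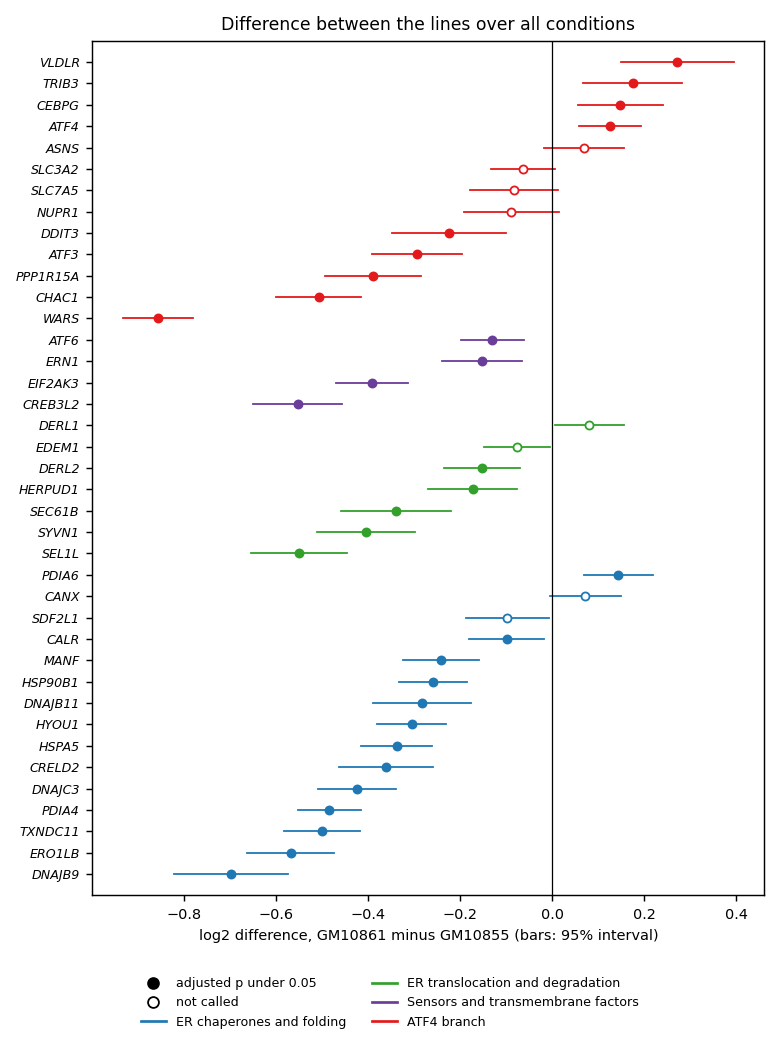
Log2 difference of each of the 39 measured genes between the lines over all conditions, GM10861 minus GM10855 (horizontal axis), ordered within role; bars are 95% intervals and filled points passed at an adjusted p under 0.05. Of the 31 filled points 26 lie left of 0, and the 4 sensors all do, while ATF4 branch genes lie on both sides.

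Markers of plasma cells, a list that includes XBP1, moved with the line difference. All 8 were measured, and 6 were called lower and 2 higher in GM10861 over all conditions. Of all probe sets 18.4% were called lower and 23.4% higher, and of those with a mean of at least 5, 21% and 31.1%. The J chain gene IGJ differed by -1.30, PRDM1 by -0.97, CD38 by -0.88, XBP1 by -0.70 (adjusted p = 4.61e-14), TNFRSF17 by -0.54 and MZB1 by -0.51, whereas SDC1 differed by 0.15 and IRF4 by 0.10. The mean log2 signal over the list ranged from 9.49 to 9.85 in GM10855 arrays and from 8.90 to 9.25 in GM10861 arrays. Of 9 measured B cell markers 5 were higher and 2 lower in GM10861, CD22 by 1.73. The part of either list in the line difference of the stress genes was not tested. With calcitriol against untreated 0.618% of all probe sets were called higher. Among them were 2 of the 8 plasma cell markers, CD38 by 1.002 and TNFRSF17 by 0.67, and 3 of the 9 B cell markers. CD38 and TNFRSF17 were higher in both lines. From untreated to calcitriol, CD38 means went from 8.42 to 9.26 in GM10855 and 7.34 to 8.51 in GM10861. Those of TNFRSF17 went from 9.57 to 10.23 and from 9.06 to 9.73. The part of these markers in the GM10855 chaperone values was not tested either.

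Other genes of the pathway, 63 listed and 59 measured, gave 2 calls (3.39%) in each of the 4 comparisons of a calcitriol-containing group with a group lacking it, and 0 for estrogen against untreated or both agents against calcitriol. Of all probe sets, calcitriol and both agents called 0.679% and 1.15% against untreated, and 0.57% and 0.754% against estrogen. The list was chosen with earlier results of these data known. The pathway genes called were DDIT4 (REDD1), an mTORC1 inhibitor that ATF4 can induce, and PHGDH, the first enzyme of serine synthesis. DDIT4 changed by 0.63 ± 0.077 with calcitriol (adjusted p = 2.9e-05) and 0.40 with both agents (adjusted p = 0.00665), against untreated cells. PHGDH changed by 0.40 ± 0.056 (adjusted p = 0.000178) and 0.34 (adjusted p = 0.00102). Against estrogen, DDIT4 changed by 0.60 with calcitriol and 0.37 with both agents, and PHGDH by 0.33 and 0.27. Between the lines 41 of 59 were called, 26 lower and 15 higher in GM10861, beside 41.8% of all probe sets (18.4% lower and 23.4% higher) and 52.1% of those with a mean of at least 5. The 6 with the smallest p were PHGDH at 1.03, XBP1 at -0.70, EDEM3, which trims glycans of misfolded proteins, at -0.84, the cystine transporter SLC7A11 at -0.91, FAM129A (now NIBAN1) at 0.70 and the degradation lectin OS9 at -0.47.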

How the data were processed

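Total RNA of GM10855 and GM10861 cells was extracted with an Exiqon kit and labelled as biotinylated cDNA by the Affymetrix whole-transcript protocol, per the labels' protocols. The authors deposited 1 log2 signal for each probe set and array. By the submitters' processing notes these are RMA values from version 1.0.1 of Affymetrix Expression Console. RMA corrects background and makes array distributions alike, so a shift shared by most genes would not be seen. The genome build of the array design is not given in the sources used here.

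Of 33297 probe sets, 21214 carried a symbol in the platform annotation (19460 a single symbol, 1754 several) and were tested. PDIA3 was left out because its probe sets name several genes. A model with 1 mean per group was fitted to all 24 arrays with limma 3.58.1 (lmFit and eBayes, R 4.3.3; 16 residual degrees of freedom), and p-values were adjusted by Benjamini-Hochberg over all 21214 probe sets. The script was tested on simulated data. Agent changes are means over both lines unless a line is named, and errors of changes are standard errors. Comparisons that share a group of arrays are not independent.

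The members, the roles, the 63 other pathway genes and the marker lists of B, plasma, T, NK, monocyte, fibroblast and erythroid cells were chosen with earlier results of these data known. Values per array are given for members called in any agent comparison, and always for HSPA5, HERPUD1, SDF2L1, DDIT3, ATF4, ASNS, TRIB3 and CHAC1. Where a comparison called none, the 3 members with the smallest p in each direction are named, and between the lines the 10 with the smallest p. The changes within a single line, including that of DNAJC3, were added after values were seen. Alternatives changed the normalization, the filter on dim probe sets, the probe sets tested or averaged, the arrays fitted, the variance prior and the array weights, and left out each array in turn. Promoter windows were RefSeq's, on GRCh38.p14.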

Additional observations from a re-analysis of the deposited data

How the results depend on the processing

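Over 76 member changes and 1309 alternative fits, 1275 stayed on their side of the threshold, 3 of them with the sign turned and no call in either fit, 21 lost a call, 13 gained one and 0 reversed a called direction. The number of members called for calcitriol against untreated rose from 0 to 1 with a mean of at least 5, cyclic loess, trend and robust estimation, or array weights, and was 0 to 1 on leaving out 1 array. For both agents against untreated it was 1 with a mean of at least 5, 1 with cyclic loess, 2 with trend and robust estimation (TXNDC11 and HSP90B1) and 1 with array weights. For calcitriol against estrogen it was 0 with only the arrays compared and 0 to 1 on leaving out 1 array. For both agents against estrogen it was 2 with trend and robust estimation, 0 with only the arrays compared and 0 to 1 on leaving out 1 array. For both agents against untreated in GM10855 it was 3 with a mean of at least 5, 3 with trend and robust estimation, 0 with only the arrays compared and 0 to 1 on leaving out 1 array. For the line difference in the response to both agents it was 1 with trend and robust estimation and 0 to 1 on leaving out 1 array. The filter tests fewer probe sets and the fit of only the arrays compared has fewer residual degrees of freedom. Why the counts changed was not tested for any of the alternatives. On leaving out 1 array, the GM10855 median of the ATF4 branch with calcitriol against untreated ran from 0.036 (without untreated array 2) to 0.078, and that of the chaperones with both agents against estrogen from 0.080 (without estrogen array 3) to 0.174 (without both array 2). Between the lines 30 to 33 members were called under the alternatives, and in untreated cells 13 to 22. Over all probe sets, both agents against untreated called 371 with trend and robust estimation and 138 with only the arrays compared, and both agents against estrogen called 99 with only the arrays compared. No paired analysis was possible because the labels give no replicate numbers that tie arrays of different groups together. The 3 arrays of a group limit the precision.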

Other observations

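Among the 5 genes on either side of TXNDC11, ZC3H7A and TNFRSF17 were called higher with calcitriol against untreated, a comparison in which TXNDC11 itself missed the threshold. In the RefSeq gene order on GRCh38.p14, ZC3H7A is the next gene and changed by 0.38 with calcitriol against untreated (adjusted p = 0.00139, limma) and by 0.48 with both agents (adjusted p = 6.54e-05). Against estrogen ZC3H7A changed by 0.33 with calcitriol (adjusted p = 0.00693) and 0.43 with both agents (adjusted p = 0.000377). TNFRSF17, the plasma cell receptor BCMA, stands 5 genes from TXNDC11 and changed by 0.67 with calcitriol (adjusted p = 8.18e-09). The neighbours SNN, LITAF, RSL1D1, GSPT1, RMI2, PRM1 and LOC400499 were not called with calcitriol, and NPIPB2 had no value. These genes were looked at after the TXNDC11 values were seen.

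Among genes outside the set whose promoter windows hold ERSE or ERSE-II, 26 were measured and 0 were called in the agent comparisons. Between the lines 6 were higher and 8 lower in GM10861, beside 41.8% of all probe sets called. The higher genes included PLS3 at 0.51 and SHCBP1 at 0.48. The lower genes included XBP1 at -0.70 and FICD, which modifies HSPA5, at -0.44.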
